A study of Mus musculus with 12 samples.

Results

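Blood cells and the endothelial cells that line vessels descend from shared precursors in the early mesoderm. A list of 30 genes of these precursors and of their first descendants was followed in embryoid bodies grown from J1 mouse ES cells and in the ES cells themselves. The genes were chosen by name, and each stood for its brightest probe set annotated to it alone on each of 2 Affymetrix chip types, MOE430A (chip A) and MOE430B (chip B). All 30 members had such a probe set on chip A, among 12393 genes with one. On chip B 3 members had one (Runx1, Erg and Flt1), among 9607 genes.

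The embryoid bodies, aggregates in which ES cells differentiate in suspension, came from a 5-day culture in bacterial Petri dishes, in D-MEM with 10% fetal bovine serum. The ES cells had been grown for 2 days on gelatin in D-MEM with the same percentage of serum plus leukemia inhibitory factor (LIF), which keeps ES cells undifferentiated, sodium pyruvate and beta-mercaptoethanol. Both media held penicillin, streptomycin, glutamax and non-essential amino acids, and the labels name no engineered allele, drug or further treatment in either state. Total RNA of 3 replicates of each state was hybridised to both chips, giving 12 arrays. The labels do not say whether the replicates were separate cultures, so the p-values rest on a spread between samples that may be technical only. The ES samples are labelled as 95% pure by eye, with DR4 feeders, mouse fibroblasts on which ES cells are maintained, as the contaminating type. No purity is given for the embryoid bodies.

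In the mouse embryo the receptor Kdr and the ETS factor Etv2 mark mesoderm that can give rise to both lineages. Tal1, Lmo2, Gata2 and Runx1 then set up the blood programme, while Fli1, Erg and Sox18 act in endothelium. Endothelial cells carry the adhesion proteins Cdh5 and Pecam1 and the receptors Tek and Tie1, and the first red cells of the yolk sac, which depend on Gata1 and Klf1, make the embryonic globins Hba-x, Hbb-bh1 and Hbb-y. Embryoid bodies in serum are a standard culture in which these lineages can form, and the comparison shows what each member's RNA signal was after 5 days against the undifferentiated cells.

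RefSeq promoter windows on GRCm38.p6, from 250 bases before to 50 bases after a gene's start, were found for 21 of the 30 members, 28 windows in all, and 9 members had none. Each is shown 5' to 3' on the gene's strand, in lower case. Cd34, at chr1:194938571-194938870 on the plus strand, is shown because it is a called member that has a window. Kdr, at chr5:75978406-75978705 on the minus strand, and Tal1, at chr4:115056176-115056475 on the plus strand, were picked after the matches were seen, as lineage-defining members that hold a match of an ETS and of a GATA motif. Capitals mark that match, which in both lies on the opposite strand.
Cd34: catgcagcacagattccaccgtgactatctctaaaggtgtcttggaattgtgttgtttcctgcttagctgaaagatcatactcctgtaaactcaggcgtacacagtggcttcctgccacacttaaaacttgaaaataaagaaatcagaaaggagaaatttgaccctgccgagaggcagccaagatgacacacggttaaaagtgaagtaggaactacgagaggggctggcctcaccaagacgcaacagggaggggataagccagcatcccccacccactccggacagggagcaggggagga
Kdr: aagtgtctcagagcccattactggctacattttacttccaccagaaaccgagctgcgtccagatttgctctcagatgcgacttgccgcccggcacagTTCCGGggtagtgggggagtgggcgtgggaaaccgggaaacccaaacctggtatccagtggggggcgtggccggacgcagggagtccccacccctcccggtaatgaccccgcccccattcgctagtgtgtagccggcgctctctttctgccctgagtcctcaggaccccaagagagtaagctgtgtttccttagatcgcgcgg
Tal1: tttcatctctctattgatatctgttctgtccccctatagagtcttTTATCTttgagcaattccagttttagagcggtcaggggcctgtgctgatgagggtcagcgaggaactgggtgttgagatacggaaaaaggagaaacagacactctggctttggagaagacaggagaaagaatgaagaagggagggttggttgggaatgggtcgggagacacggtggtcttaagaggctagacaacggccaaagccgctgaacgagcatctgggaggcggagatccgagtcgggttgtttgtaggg
The 4 motifs were chosen with the signals known and searched on both strands, and none of them contains another. The GATA motif AGATAA was in 4 of the 28 member windows and in 11.2% of all 32851 RefSeq windows. The ETS motif CCGGAA was in 2 of the 28, against 14.9% of all, and the TATA motif TATAAA in 3, against 13.6%. The E-box CANNTG, which is left in lower case above, was in 18 of the 28 and in 72.3% of all. The Cd34 window held none of the 4. Tal1 had a further window, at chr4:115057561-115057860 on the plus strand, which is not shown and also held none of them.

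The arrays of a chip had been scaled before deposit to a common trimmed mean, which was between 1500.1 and 1500.6 on every array. Median signals on chip A were 588.8 to 619.2 on the EB arrays and 612.2 to 680.9 on the ES arrays, and with only 3 arrays of a state on a chip, their number limits how precise any value is. Across the probe sets of chip A the arrays correlated at 0.958 to 0.966 among EB and at 0.936 to 0.953 among ES. ES replicate 3 correlated with the EB arrays at 0.934 to 0.942, above the 0.915 to 0.926 of ES replicate 1 and the 0.906 to 0.917 of ES replicate 2. It correlated with these ES arrays at 0.953 and 0.936, and changes that turn on it are also given without it. Of 4 ES identity genes Pou5f1 fell 1.87-fold and Zfp42 fell 3.36-fold in embryoid bodies (limma adjusted p = 0.00783 and 0.0298), and Nanog and Sox2 did not pass. Without ES replicate 3, where Zfp42 was dimmest among the ES arrays, its log2 change was -2.23 in place of -1.75. On both chips the EB and the ES arrays came from different chip lots and were scanned on different days, so these and the culture state cannot be told apart. On chip A the EB arrays were scanned on 3 days and the ES arrays on 1 other day, and 2 fluidics positions held an array of each state, EB replicate 2 with ES replicate 1 and EB replicate 3 with ES replicate 2.

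After 5 days 2 of the 30 members were lower in embryoid bodies on chip A and 0 were higher. Both that fell are surface proteins, Pecam1 and Cd34, and the other 28 members, with every transcription factor, receptor and globin among them, did not pass the test. Throughout, a gene rose or fell where its limma adjusted p was under 0.05, with Benjamini-Hochberg adjustment over all 22626 probe sets of chip A or 22511 of chip B. Log2 changes are EB minus ES on log2(signal + pseudocount), with the 20th percentile of all values as pseudocount (137 for chip A, 253 for chip B), and they understate the changes of dim genes. Of all probe sets of chip A 2.91% were called lower and 3.39% higher, a rate at which 30 probe sets hold about 1 of each, so the count of 2 lower members is close to the background and is no result about the list as a whole. Here and below, shares and medians over all probe sets include dimmer ones of a gene and ones with several genes or none. A member stands for its gene's brightest, so the comparison is a rough one.

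The members' median log2 change was -0.16, against -0.05 over all probe sets of chip A, with 22 members below 0 and 8 above. Under quantile and median scaling the members below 0 numbered 19 and 20. At an unadjusted p under 0.05 there were 5 members (Pecam1, Cd34, Lmo2, Tek and Emcn), against 22.0% of all probe sets. The EB arrays lay wholly below the ES arrays for 6 members, against 14.0% of all probe sets, and wholly above them for 1, against 13.1%. How tightly a change was bounded depended on the pseudocount, which compresses the changes of dim members. The 95% interval lay within 2-fold in either direction for 17 members as reported, for 6 with a pseudocount of 1 and for 28 with the chip median, so a narrow interval of a dim member is no sign of an equal level. By signal, 13 members were below the median of chip A on all 6 arrays and 7 above it on all 6. Under its 20th percentile on all 6 were 3 (Fli1, Tie1 and Hbb-y). These counts were not set against those of all probe sets.

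**Figure D1:**
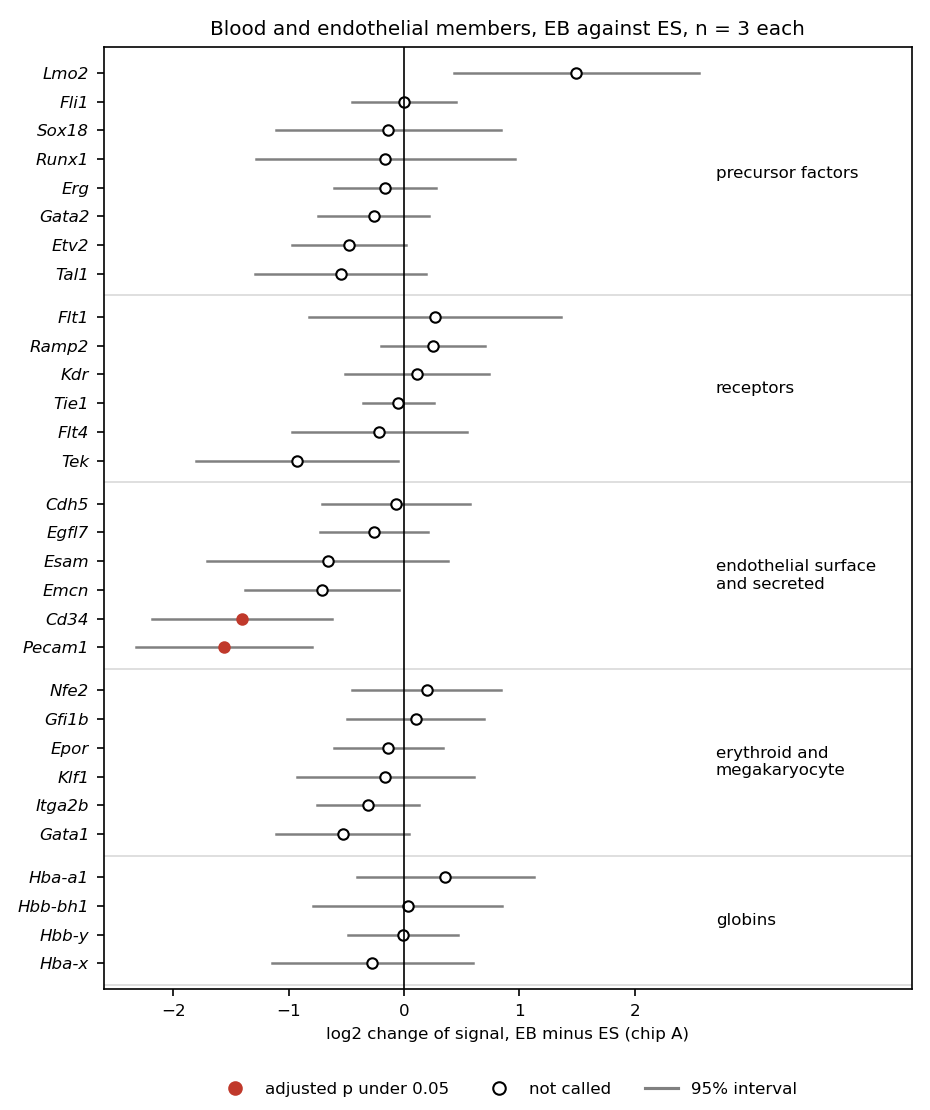
Log2 change of signal, EB minus ES, of the 30 members on chip A (x axis), grouped by role from top to bottom. Points are limma estimates, filled where the adjusted p was under 0.05, and lines are 95% intervals (n = 3 arrays each). Pecam1 at -1.56 and Cd34 at -1.41 are the filled points, and Lmo2 at 1.49 lies farthest above 0 without passing.

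Among the 8 transcription factors of the precursor 0 rose and 0 fell, with a median log2 change of -0.16. Etv2, the ETS factor that starts the blood and endothelial programme, had signals of 718, 672 and 627 in embryoid bodies, against 975, 1089 and 906 in ES cells. Every EB array lay below every ES array, and the log2 change was -0.48 with a 95% interval of -0.97 to 0.02 (limma adjusted p = 0.245). Tal1, a basic helix-loop-helix factor needed for all blood formation, had signals of 279, 109 and 121 in embryoid bodies and of 180.4, 328 and 424 in ES cells. The groups overlapped through EB replicate 1, and the log2 change was -0.55 (interval -1.29 to 0.19, adjusted p = 0.378).

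Lmo2, the bridging protein that joins Tal1 to GATA factors, had the largest positive change of the 30 members on chip A. Its signals were 574, 1485 and 1897 in embryoid bodies, against 492, 119.7 and 513 in ES cells. All 3 EB arrays lay above all 3 ES arrays, EB replicate 1 by a small margin, and ES replicate 2 was far below the other two. The mean signal was 1319 ± 677 in embryoid bodies and 375 ± 221 in ES cells (SD, n = 3 each), a log2 change of 1.49 with an interval of 0.44 to 2.55 that did not pass (limma adjusted p = 0.0965). The adjusted p was 0.0461 with dim probe sets left out and 0.0321 with the fluidics position as a block, and it ranged from 0.0321 to 0.271 over 17 alternatives. The fluidics block takes its change from the arrays in shared positions alone, so EB replicate 1 and ES replicate 3 do not enter it. Within those positions the changes were 1.37 and 2.99, which are the same data and no further support. Without ES replicate 3 the change was 1.73 (adjusted p = 0.0788).

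Gata2, the zinc finger factor of blood stem and progenitor cells, had signals of 978, 947 and 839 in embryoid bodies and of 1351, 946 and 1130.1 in ES cells. The groups overlapped through EB replicates 1 and 2 and ES replicate 2, and the log2 change was -0.26 (interval -0.74 to 0.22, adjusted p = 0.523). Runx1, which is required for definitive blood cells to emerge from endothelium, had signals of 436, 985 and 833 in embryoid bodies and of 302, 1876 and 848 in ES cells for its brightest probe set. The ES arrays alone spanned a wider range than all 3 EB arrays, and the interval of the change, -1.29 to 0.96 around -0.16, was wide (adjusted p = 0.89). The other factors of this role, the endothelial ETS factors Fli1 and Erg and the SRY-box factor Sox18, had mean signals of 64.0 to 232 in embryoid bodies and of 75.8 to 249.8 in ES cells. Their log2 changes were between -0.17 and 0.00, and their groups overlapped.

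Runx1 and Erg were also on chip B, where neither passed. The chip B probe set of Runx1 had signals of 223, 227 and 1293 in embryoid bodies, against 116, 155 and 100.3 in ES cells. Every EB array was above every ES array, but EB replicate 3 alone was bright and the other 5 arrays were under the 20th percentile of the chip. The log2 change was 0.91 with an interval of -0.05 to 1.87 (limma adjusted p = 0.2). Erg on chip B had a log2 change of 0.23 (interval -0.27 to 0.74), with overlapping groups. Over the 3 members of chip B 0 were lower and 0 higher at the adjusted threshold, against 4.91% and 5.78% of all its probe sets. There 1 member, Flt1, had an unadjusted p under 0.05, against 28.1% of all. The median of the 3 was 0.91, against -0.001 over all probe sets of that chip.

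**Figure D2:**
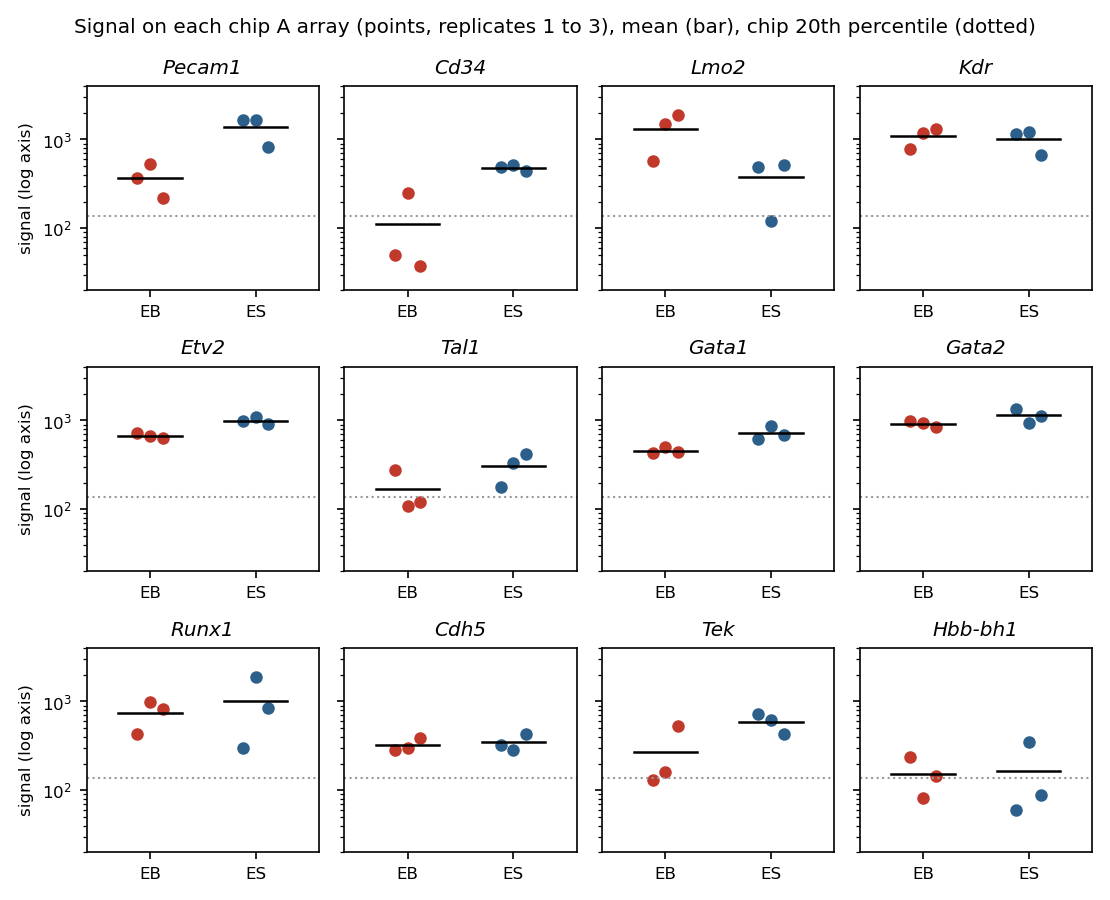
Signal on each chip A array (y axis, log scale) of 12 members in embryoid bodies (left, red) and ES cells (right, blue). Points are replicates 1 to 3 from left to right, bars are means, and the dotted line is the 20th percentile of the chip, 137. The groups separate downward in Pecam1, Cd34, Etv2 and Gata1 and upward in Lmo2, and they overlap in the other 7 panels.

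Among the 6 receptors 0 rose and 0 fell, with a median log2 change of 0.03. Kdr, the main signalling receptor for VEGF and the standard marker of blood and endothelial mesoderm, had signals of 786, 1181 and 1313 in embryoid bodies, against 1150.4, 1221 and 663 in ES cells. The groups overlapped almost fully, with all 6 arrays above the chip median. The log2 change was 0.11 with an interval of -0.51 to 0.74, so a change of 2-fold or more lay outside the interval (limma adjusted p = 0.86). ES replicate 3 was the dimmest array, and without it the change was -0.13 (adjusted p = 0.791). Flt1, a VEGF receptor that also traps the ligand, had 3 probe sets on chip A and 1 on chip B. Its brightest one on chip A had signals of 689, 601 and 904 in embryoid bodies and of 163, 1204 and 762 in ES cells, with a log2 change of 0.27 (interval -0.82 to 1.36, adjusted p = 0.798).

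The other probe sets of Flt1 gave different values. A dimmer one on chip A had signals of 302, 385 and 498 in embryoid bodies, against 71.3, 74.5 and 298 in ES cells. Its groups did not overlap, although ES replicate 3 came within a few units of EB replicate 1, and the log2 change of 0.97 (interval 0.18 to 1.76) did not pass (adjusted p = 0.137). The third on chip A had a change of -0.06. The chip B probe set, the brightest uncalled member there, had signals of 2909, 4188 and 2330.5 in embryoid bodies, against 1622, 440.2 and 2531 in ES cells. ES replicate 3 lay above EB replicate 3, so the groups overlapped, and the change was 1.11 with an interval of 0.08 to 2.14 (adjusted p = 0.149). Without ES replicate 3 it was 1.54 (adjusted p = 0.078).

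Tek, the receptor for angiopoietins, had signals of 132, 162 and 527 in embryoid bodies, against 721, 612 and 431 in ES cells. EB replicates 1 and 2 were well below every ES array, while EB replicate 3 lay above ES replicate 3. The log2 change was -0.93 with an interval of -1.80 to -0.05 (limma adjusted p = 0.2). Without ES replicate 3 it was -1.09 (adjusted p = 0.164). Tie1, the related orphan receptor, was under the 20th percentile of the chip on all arrays, at 13.4 to 19.5 in embryoid bodies and 11.0 to 39.6 in ES cells. Flt4, the receptor for Vegfc, and Ramp2, a partner of the adrenomedullin receptor, had log2 changes of -0.21 and 0.25 with overlapping groups. Ramp2 was above the chip median on all 6 arrays.

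The 6 endothelial surface, adhesion and secreted proteins held both members that fell, with a median log2 change of -0.69 and all 6 below 0. Pecam1, the junctional adhesion protein CD31, which mouse ES cells are also known to carry, had signals of 364, 523 and 221 in embryoid bodies, against 1642, 1654 and 816 in ES cells. The highest EB array was below the lowest ES array, which was ES replicate 3. Pecam1 averaged 369 ± 151 in embryoid bodies and 1371 ± 481 in ES cells (SD, n = 3 each) and fell 2.95-fold (log2 change -1.56, SE 0.34, interval -2.33 to -0.80, limma adjusted p = 0.0281). In these bulk samples fewer cells that carry an RNA and less of that RNA per cell cannot be told apart.

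Cd34, the sialomucin of blood progenitors and small-vessel endothelium, had signals of 50.4, 251 and 37.3 in embryoid bodies, against 487, 514 and 444 in ES cells. The 3 ES arrays were close together, and EB replicate 2 was several times brighter than the other EB arrays, which lay under the 20th percentile of the chip. No array of either state lay above the chip median. Cd34 averaged 113 ± 119.7 in embryoid bodies and 482 ± 35.3 in ES cells (SD, n = 3 each) and fell 2.65-fold (log2 change -1.41, SE 0.35, interval -2.19 to -0.63, limma adjusted p = 0.0444). Because 2 EB arrays lay under the pseudocount, the size of the change depended on it, with a log2 change of -2.61 at a pseudocount of 1 (adjusted p = 0.0598) and of -0.60 at the chip median (adjusted p = 0.0365). For Pecam1 these were -1.90 and -0.98. Pecam1 and Cd34 each had a single probe set on chip A and none of their own on chip B.

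With 1 array left out the log2 change of Pecam1 stayed between -1.86 and -1.33 and that of Cd34 between -1.77 and -1.20, while the call was often lost. The adjusted p of Pecam1 was 0.0889 without EB replicate 1 (change -1.58), 0.0859 without EB replicate 3 (-1.33), 0.119 without ES replicate 1 (-1.41) and 0.0926 without ES replicate 2 (-1.41). Without ES replicate 3 it was 0.0117 (-1.86). The adjusted p of Cd34 was 0.172 without EB replicate 1 (change -1.25), 0.147 without EB replicate 3 (-1.20), 0.122 without ES replicate 1 (-1.40), 0.103 without ES replicate 2 (-1.37) and 0.0579 without ES replicate 3 (-1.45). With EB replicate 2 left out both stayed under the threshold, at 0.0486 for Pecam1 and 0.0286 for Cd34. With the fluidics position as a block the changes were -1.88 for Pecam1 (adjusted p = 0.0299) and -1.29 for Cd34 (adjusted p = 0.155). That fit takes the changes from the arrays in shared positions alone. Within these positions they were -1.43 and -2.32 for Pecam1 and -0.69 and -1.90 for Cd34. Over all alternatives the adjusted p of Pecam1 ran from 0.0102 to 0.119, and that of Cd34 from 0.0259 to 0.172.

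**Figure D3:**
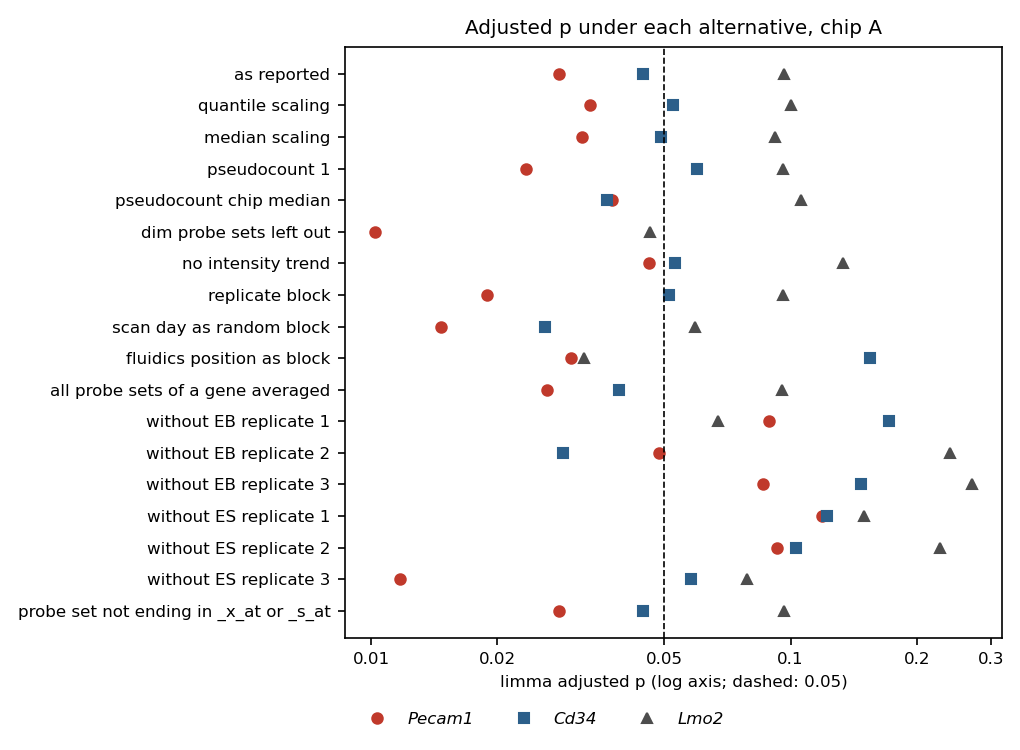
Limma adjusted p (x axis, log scale) of Pecam1, Cd34 and Lmo2 on chip A under the reported setting and each alternative (y axis), with the threshold of 0.05 dashed. Pecam1 lies right of the line in 4 alternatives, all with an array left out, Cd34 in 10 of the 16 in which it was tested, and Lmo2 left of it in 2 of 17.

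Markers of other cell types were also followed on these arrays. Of 22 measured feeder fibroblast markers 9 fell, among them the collagen gene Col1a1, and 0 rose. Of all probe sets of chip A 2.91% were lower and 3.39% higher. The summed signal of the feeder markers was 15583 to 26559 on the EB arrays, against 40218 to 72993 on the ES arrays. Of 15 macrophage and leukocyte markers 1 fell (Laptm5, 2.79-fold) and 0 rose. The groups overlapped for 10 of them, and 3 had a change above 0. Their summed signals were 4467 to 6009 in embryoid bodies and 7594 to 8872 in ES cells. Both sums were lower on every EB array than on every ES array. None of these markers was at 0 on any array or under the 20th percentile on all 6 arrays of chip A. On chip B 0 of 6 feeder and 0 of 3 leukocyte markers passed, with median log2 changes of -0.33 and 0.51. Their part in the falls of Pecam1 and Cd34 was not tested.

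Cdh5, the cadherin of endothelial junctions and a defining marker of that cell type, had signals of 281, 298 and 393 in embryoid bodies, against 325, 286 and 432 in ES cells. The groups overlapped, all 6 arrays were below the chip median, and the log2 change was -0.07 with an interval of -0.71 to 0.57 (limma adjusted p = 0.919). Emcn, an endothelial sialomucin, had signals of 140.4, 37.9 and 55.4 in embryoid bodies and of 140.4, 353 and 163 in ES cells. EB replicate 1 and ES replicate 1 were equal at this rounding, and the other ES arrays were brighter than every EB array. Its log2 change of -0.71 (interval -1.37 to -0.05) did not pass (adjusted p = 0.195).

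Egfl7, a secreted protein of vessel walls, was the brightest uncalled member on chip A, with signals of 1644, 1320.3 and 1128 in embryoid bodies, against 1489, 2014 and 1473 in ES cells. The groups overlapped through EB replicate 1 alone, and the log2 change was -0.26 (interval -0.73 to 0.21, limma adjusted p = 0.517). Its other 3 probe sets had changes of -0.46, -0.47 and -0.94, and none passed. Esam, a tight-junction adhesion protein of endothelium and platelets, had means of 241 ± 116 in embryoid bodies and 527 ± 406 in ES cells (SD, n = 3 each). A single ES array, replicate 1, held the high value, and the groups overlapped.

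**Figure D4:**
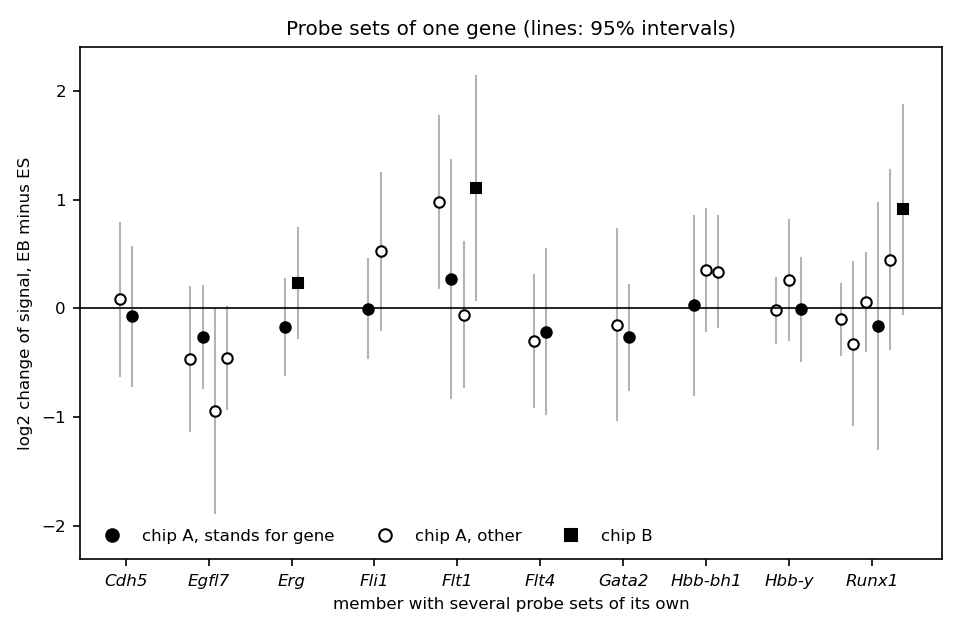
Log2 change of signal, EB minus ES (y axis), of every probe set of the 10 members that had several (x axis), with 95% intervals as lines. Filled circles stand for the gene on chip A, open circles are its other chip A probe sets, and squares are chip B. The 4 probe sets of Egfl7 lie below 0, while those of Flt1 run between -0.06 and 1.11 and those of Runx1 between -0.32 and 0.91.

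Counting every probe set annotated to a member alone, 47 on chip A, 2 were called lower and 0 higher. Of all probe sets of the chip 2.91% were lower and 3.39% higher. Both that were lower were the single probe sets of Pecam1 and Cd34. None of the 17 that did not stand for their gene passed, with changes between -0.94 and 0.97. At an unadjusted p under 0.05 there were 2 of these 17, a probe set of Flt1 and a probe set of Egfl7, against 22.0% of all probe sets. Probe sets of a gene can cover different transcripts or ends of a transcript, and the sign of the change differed between the chip A probe sets of 5 members. These were Flt1, Runx1, Hbb-y, Cdh5, whose second probe set was at 0.08, and Fli1, whose second probe set was at 0.53 (interval -0.19 to 1.24). Erg had -0.17 on chip A and 0.23 on chip B.

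Among the 6 erythroid and megakaryocyte regulators and receptors 0 rose and 0 fell, with a median log2 change of -0.15. Gata1, the GATA factor of red cells and megakaryocytes, had signals of 436, 498 and 438 in embryoid bodies, against 625, 861 and 695 in ES cells. Every EB array was below every ES array, and the log2 change was -0.53 with an interval of -1.11 to 0.04 (limma adjusted p = 0.266). Itga2b, the integrin subunit CD41 of platelets and of the earliest blood progenitors, was likewise lower on every EB array, at 936 to 1052 against 1119 to 1469 in ES cells, with a change of -0.31 that did not pass. Klf1, the red cell Kruppel-like factor, Nfe2, a globin and platelet gene regulator, Gfi1b, a repressor needed in both lineages, and Epor, the erythropoietin receptor, had changes between -0.16 and 0.20. Their groups overlapped, and Epor was the only one of these 4 above the chip median on all arrays.

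Among the 4 globins 0 rose and 0 fell, with a median log2 change of 0.01. Hba-x, the embryonic alpha-like chain, had signals of 238, 229 and 464 in embryoid bodies, against 436, 653 and 186 in ES cells. The order of the arrays crossed between the states, and the change was -0.27 (interval -1.15 to 0.60, limma adjusted p = 0.733). Hbb-bh1, the beta-like chain of the first yolk sac red cells, had signals of 235, 82.0 and 145 in embryoid bodies and of 60.7, 348 and 87.8 in ES cells. The brightest array was an ES array, and the change was 0.03 (interval -0.79 to 0.85, adjusted p = 0.976).

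Hbb-y, the other embryonic beta-like chain, had signals of 18.7, 43.4 and 78.7 in embryoid bodies and of 25.9, 101 and 21.9 in ES cells. All 6 were under the 20th percentile of the chip, and the change was -0.01 (interval -0.48 to 0.46, limma adjusted p = 0.986). The other probe sets of Hbb-bh1 and Hbb-y were dim too, with changes between -0.02 and 0.35, and EB replicate 1 or 3 was the brightest array in 3 of these 4. Hba-a1, the adult alpha chain, had signals of 341 to 500.2 in embryoid bodies and of 179 to 531 in ES cells, with a change of 0.36 (interval -0.41 to 1.13). Globin genes are related in sequence, so a probe set may also read a related chain. The 3 probe sets shared by Hba-a1 and Hba-a2 were left out because they are annotated to more than 1 gene.

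Of 37 measured vascular genes that are no members, 1 rose and 1 fell on chip A, with a median log2 change of -0.21. Of all probe sets of that chip 3.39% were higher and 2.91% lower. Vegfc, the ligand of Flt4, rose 3.91-fold (limma adjusted p = 0.00558), at 1170.3, 1809 and 1092 in embryoid bodies and 209.9, 282 and 222 in ES cells. The chip B probe set of Vegfc was 1.90-fold higher and did not pass (limma adjusted p = 0.0803). Eng, a TGF-beta co-receptor of endothelium that fibroblasts and other stromal cells also carry, fell 4.83-fold (adjusted p = 0.0306), at 738, 62.3 and 134 in embryoid bodies and 2082, 1812 and 1097 in ES cells. On chip A the groups of Vegfc and of Eng stood clear of each other. On chip B 2 of 10 vascular genes rose and 0 fell, against 5.78% and 4.91% of all its probe sets. They were the receptor Notch4 (2.91-fold, limma adjusted p = 0.0249) and the Notch ligand Jag1 (1.66-fold, adjusted p = 0.0343). The chip A probe sets of Notch4 and Jag1 had changes of -0.15 and -0.07 and did not pass.

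Of 29 measured blood cell genes that are no members 0 rose and 0 fell on chip A, with a median of -0.04. At an unadjusted p under 0.05 there were 5, against 22.0% of all probe sets. On chip B 0 of 5 passed. Of 17 measured early mesoderm genes 4 rose and 0 fell on chip A, against 3.39% and 2.91% of all probe sets. Their median was 0.28, with 9 above 0 and 8 below. The other 13 did not pass, among them Mesp1 at 0.28, Bmp4 at -0.60 and Msgn1 at -0.67. The mesoderm gene T was listed but was not among those measured. Aplnr, the apelin receptor of early mesoderm, rose 7.16-fold (limma adjusted p = 0.00734), Lhx1, a LIM homeobox factor of early mesoderm, 4.86-fold (adjusted p = 0.027), and Evx1, a primitive streak homeobox factor, 3.65-fold (adjusted p = 0.0188). The fourth was Mixl1, a primitive streak homeobox factor, at 3.38-fold (adjusted p = 0.0123), named after its value was seen. In each of the 4 every EB array was above every ES array. Without ES replicate 3 Lhx1 had an adjusted p of 0.0543, and the other 3 still passed. No test of the difference between these lists and the members was made.

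**Figure D5:**
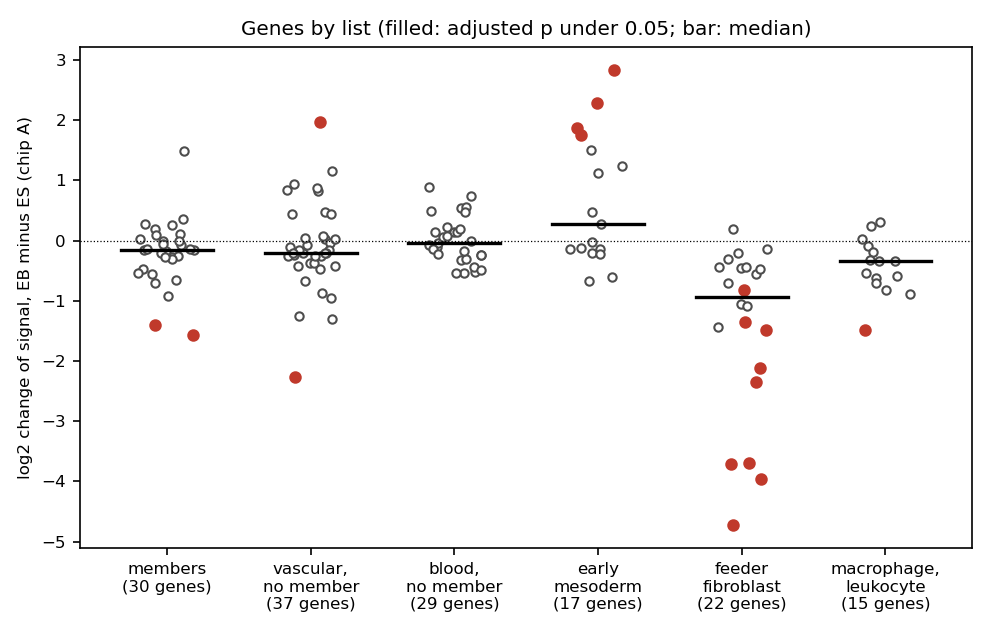
Log2 change of signal, EB minus ES (y axis), of each gene on chip A, by list (x axis, with the number of measured genes). Filled points had an adjusted p under 0.05 and bars are medians, which run from -0.94 for the feeder fibroblast markers to 0.28 for early mesoderm, with the members at -0.16. Horizontal scatter within a list is arbitrary.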

How the data were processed

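Probe set signals of 6 MOE430A and 6 MOE430B arrays were analysed. The deposited values are linear intensities, from MAS5 according to the submitters' processing notes (version not given in the sources used here), and were used as deposited. Genes were named from the platform annotation. Of 22626 tested probe sets of chip A 20380 had 1 gene, 691 several and 1555 none listed, against 14661, 245 and 7605 of 22511 on chip B. Control probe sets (64 per chip) were not tested, and a probe set with several genes stood for no member.

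Each chip was tested apart with limma 3.58.1 in R 4.3.3 (lmFit, eBayes with an intensity trend). The procedure was tested on simulated data. A gene stood for its probe set with the highest mean.

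Members and lists were chosen with earlier results of these data known. Values in every array are given for called members, for 11 lineage-defining members whatever their values, for the brightest uncalled member, and for the uncalled members with the largest change (up to 3 each way) whose groups do not overlap. Other members are given by role. Called vascular, blood and mesoderm genes that are no members are named, up to 3 each way, and Flt1, Tek, Itga2b, Laptm5, Col1a1 and the ES identity genes were added after their values were seen.

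Alternatives were scaling by quantiles or by medians, a pseudocount of 1 or the chip median, dim probe sets left out, no intensity trend, the replicate number, scan day and fluidics position as blocks, a stricter threshold, other choices of probe set, and each array left out in turn.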

Additional observations from a re-analysis of the deposited data

How the results depend on the processing

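The count of members lower in embryoid bodies on chip A, 2 as reported, was 1 (Pecam1) under quantile scaling, a pseudocount of 1, no intensity trend, the replicate block and the fluidics position as a block, and 1 with dim probe sets left out, where Cd34 was not tested. It was 0 at an adjusted p of 0.01 and 0 to 2 with an array left out. The count of higher members on chip A, 0 as reported, was 1 (Lmo2) with dim probe sets left out and with the fluidics position as a block. On chip B both counts were 0 under each alternative run. The mean of each state was subtracted from each probe set to ask whether replicate numbers pair the samples. The remaining deviations of same-numbered arrays correlated at -0.066, 0.043 and -0.007 on chip A and at -0.017, -0.03 and -0.023 on chip B. These values gave no sign of a pairing, though so few arrays cannot settle it. With the replicate number as a block Cd34 had a limma adjusted p of 0.0512. The scan-day block could not be fitted on chip B, and there the fluidics position is the replicate block. On chip A no scan day held both states, so the scan-day block cannot adjust a change for the day. The correlation within a day was estimated there at -0.113. No called change turned direction, but 14 of the 30 members, all uncalled, changed sign under at least 1 alternative on chip A. Over the whole of chip A, 658 probe sets were lower and 767 higher as reported, against 419 and 425 with no intensity trend, 483 and 481 with the probe sets of a gene averaged, 1022 and 1221 with the scan day as a random block, and 228 to 931 lower and 206 to 1161 higher with an array left out. On chip B, 1106 and 1301 were called as reported, against 430 to 857 and 502 to 949 with an array left out. On chip A 13 of the 30 members were below the chip median on all arrays.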
